A study of Arabidopsis thaliana with 8 samples.

Results

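The expanding leaf was compared here with all other stages in an Arabidopsis thaliana shoot series, ecotype Ler (Landsberg erecta), to find the genes whose transcripts were highest or lowest in leaves 1 and 2 while they were still growing. Expanding leaves 1 and 2 (EL_14DAS) were taken on day 14 after sowing and were set against younger apices (Apex_5DAS), older apices of day 14 (Apex_14DAS) and mature leaves of day 35 (ML_35DAS). Plants of every group grew at 20 °C on soil with a light period of 10 h, no treatment or mutation is named, and RNA of each group was hybridised to 2 Affymetrix ATH1 arrays, which gives 2 expanding-leaf arrays among 8. The younger apices are dated day 5 in the sample titles and day 7 in the source names. A gene was said to peak in expanding leaves when both EL_14DAS arrays lay above all 6 other arrays and the difference between the EL_14DAS mean and the mean of the other 3 group means had a limma adjusted p under 0.05, and to dip when both lay below. Of 9905 genes tested, 154 peaked (1.55%) and 155 dipped (1.56%).

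A leaf primordium grows first by cell division and then by cell expansion, and the change spreads from the tip of the blade to its base. While cells enlarge, proplastids become chloroplasts, for which chlorophyll is made from glutamate through the tetrapyrrole pathway and the thylakoid complexes are put together by dedicated assembly factors. Stomata arise in the epidermis during the same period, and cell growth depends on cortical microtubules and on proteins that loosen or remodel the wall.

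Levels are given as log2(intensity + 7.7), called log2 intensity, for replicate 1 and then replicate 2 of a group. On this scale an intensity of 0 gives 2.94, and folds are smaller than the fold of the intensities themselves, most of all for dim genes. No label states that the 2 arrays of a group came from separate plants, so p-values measure only the spread between these arrays, whose number limits the precision. Pearson's r between the 2 arrays of a group, across genes that are not independent replicates, was 0.951 in expanding leaves and from 0.908 in younger apices to 0.978 in mature leaves. The 2 younger-apex arrays differed more than 2-fold for 12.7% of genes, against 6.59% for the expanding-leaf arrays, and Apex_5DAS replicate 1 had a 25S ribosomal RNA signal of 201 on the deposited scale, against 1.01 to 28.1 on the other arrays. RCA, which activates Rubisco, and LHCB4.2, a light-harvesting protein, had log2 intensities of 11.96 to 12.59 in expanding leaves, which puts these genes of green tissue among the bright ones. They were bright in every group and do not mark this stage. RCA had 12.79 and 12.02 in younger apices, 11.94 and 11.99 in older apices, and 13.09 and 12.97 in mature leaves. Expanding leaves differed from the mean of the other groups by 0.04 for RCA (limma adjusted p = 0.93) and 0.19 for LHCB4.2 (0.58). Of 10 marker lists, 8 had any tested member, and no listed shoot meristem gene was among them.

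Without regard to p, both expanding-leaf arrays lay above all 6 others for 655 genes (6.61%) and below them for 453 genes (4.57%). The adjusted p alone was passed by 226 genes with a higher level in expanding leaves and 256 with a lower one. The median difference was 0.96 log2 units over the 154 peak genes, -1.20 over the 155 dip genes and 0.08 over all genes tested. With the arrays left at the equal medians they were deposited with, 100 genes peaked and 157 dipped, which lowers the share of peaks among the calls to 38.9%, against 49.8%. The last gene inside the threshold was AT3G16660, with an adjusted p of 0.0493 and a difference of 1.36, and the first outside it was AT3G15110, with 0.0503 and 1.02.

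Most of these genes were separated from only some of the other stages. Expanding leaves differed from younger apices in 966 genes (9.75%), from older apices in 624 (6.30%) and from mature leaves in 2118 (21.4%). Of the 154 peak genes, 122 passed the test against younger apices, 48 against older apices and 101 against mature leaves, and 12 passed all 3 (0.121% of genes tested). Of the 155 dip genes, 109 passed against younger apices, 80 against older apices and 110 against mature leaves, and 34 passed all 3 (0.343%). The older apex was the nearest group for 83 peaks, mature leaves for 48 and younger apices for 23. For the dips, mature leaves were nearest in 62 genes, older apices in 54 and younger apices in 39.

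The distance to the nearest group was usually small. Its median was 0.56 log2 units for peaks and -0.72 for dips, and it exceeded 1 log2 unit in 14 peaks and 37 dips. The same kind of call made for the other groups gave 471 genes highest in younger apices (4.76%) and 380 lowest there (3.84%), 441 highest (4.45%) and 277 lowest (2.80%) in older apices, and 973 highest (9.82%) and 2278 lowest (23.0%) in mature leaves. These counts come from the same 8 arrays and were not compared by a test.

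The calls rested on few arrays. Without EL_14DAS replicate 1, 37 genes peaked and 89 dipped, and without replicate 2, 5 peaked and 22 dipped. Without ML_35DAS replicate 1 or 2 there were 17 or 19 peaks and 42 or 40 dips, and without Apex_14DAS replicate 2 there were 55 and 80. Without Apex_5DAS replicate 1 or 2 the calls increased to 328 or 341 peaks and 271 or 265 dips. In limma, none of the 154 peaks passed in every one of the 8 fits that left out an array. At an unadjusted p under 0.05 the number was 152, which the choice of these genes on the full set of arrays largely fixes. Of the 155 dips, 16 passed in all 8, among them GH3.3, TUB1, PPDK and FDH.

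**Figure D1:**
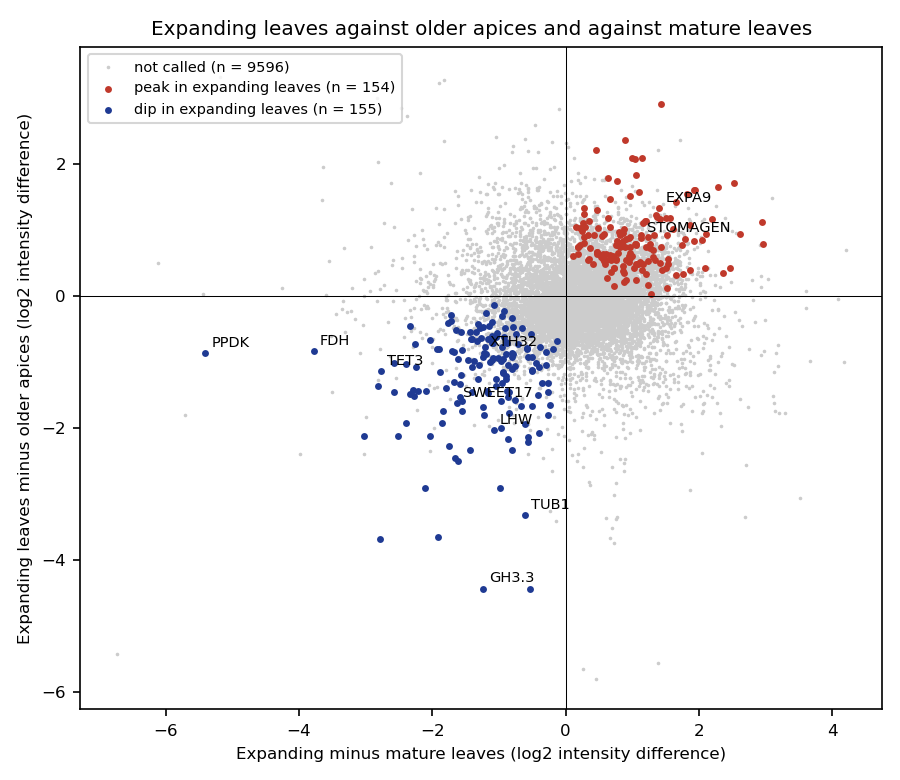
Each point is 1 of 9905 genes, with the difference between expanding and mature leaves on the horizontal axis and between expanding leaves and older apices on the vertical axis, both in log2 intensity, with 2 arrays per group. The 154 peaks (red) lie in the upper right and the 155 dips (blue) in the lower left, and PPDK and FDH stand out by their difference from mature leaves, GH3.3 and TUB1 by their difference from older apices.

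Genes of chlorophyll synthesis were among the peaks. Of 38 genes listed for chlorophyll synthesis and breakdown, 9 had a tested probe set, and 5 of these peaked and none dipped, with a median difference of 0.88, against 0.08 over all genes. The list holds the steps from glutamate to chlorophyll and the enzymes that take chlorophyll apart. The 5 peaks were 1.63-fold to 1.95-fold above the mean of the other stages.

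GSA1 (AT5G63570) encodes glutamate-1-semialdehyde aminotransferase, which makes aminolevulinic acid, the first precursor that is committed to tetrapyrroles. GSA1 had log2 intensities of 9.77 and 10.21 in expanding leaves, against 9.09 and 8.71 in younger apices, 9.66 and 9.51 in older apices, and 8.86 and 8.82 in mature leaves. The expanding-leaf arrays stood just above the older apices and clear of the other 4 arrays, and the difference from the mean of the other groups was 0.88 ± 0.18 (SE), or 1.84-fold higher, adjusted p = 0.024. HEMB1 (AT1G69740) encodes the aminolevulinic acid dehydratase of the next step. HEMB1 stood at 10.44 and 10.8 in expanding leaves, against 10.01 and 9.44 in younger apices, 10.09 and 10.18 in older apices, and 9.45 and 9.48 in mature leaves, so that older apices again came closest. The difference was 0.85 ± 0.19 (SE), or 1.8-fold higher, adjusted p = 0.03.

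HEME1 (AT3G14930) and HEME2 (AT2G40490) encode uroporphyrinogen decarboxylases, which act before the pathway divides into its heme and chlorophyll branches. HEME1 had log2 intensities of 10.77 and 10.7 in expanding leaves, against 10.14 and 9.2 in younger apices, 10.11 and 9.78 in older apices, and 9.5 and 9.9 in mature leaves, a difference of 0.97 ± 0.24 (SE), or 1.95-fold higher, adjusted p = 0.048. HEME2 had 10.67 and 10.67 in expanding leaves, against 9.82 and 9.48 in younger apices, 10.26 and 10.01 in older apices, and 10.02 and 10.16 in mature leaves, a difference of 0.71 ± 0.16 (SE), or 1.63-fold higher, adjusted p = 0.034. The 2 expanding-leaf arrays were nearly equal for both genes and did not overlap any other array. NOL (AT5G04900) encodes a chlorophyll b reductase, an enzyme of chlorophyll breakdown and of the conversion of chlorophyll b to a. NOL had log2 intensities of 9.15 and 9.21 in expanding leaves, against 7.86 and 8.02 in younger apices, 8.74 and 8.59 in older apices, and 8.17 and 8.3 in mature leaves, a difference of 0.9 ± 0.16 (SE), or 1.87-fold higher, adjusted p = 0.014.

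All 5 genes passed the test against younger apices, with adjusted p from 0.004 to 0.047, and all but HEME2 (adjusted p = 0.06) passed against mature leaves. None passed against older apices, where adjusted p ran from 0.15 to 0.34. The other tested genes of the list did not qualify. CHLI2, a subunit of the magnesium chelatase, differed by 0.99 ± 0.18 (adjusted p = 0.018), but an older-apex array at 9.10 lay between the expanding-leaf arrays at 8.94 and 9.39. PORB, a protochlorophyllide oxidoreductase, differed by 0.91 ± 0.24 (adjusted p = 0.057), CHLM, the methyltransferase after magnesium insertion, by 0.39 ± 0.2 (adjusted p = 0.3) and HEMA2, a glutamyl-tRNA reductase, by -0.35 ± 0.31 (adjusted p = 0.56). The 5 calls were lost without either EL_14DAS array or either ML_35DAS array, with adjusted p up to 0.27, and 4 of them without Apex_14DAS replicate 2. With equal array medians or no intensity trend all but NOL were lost, with adjusted p up to 0.10, and with no filter HEME1, HEME2 and HEMB1.

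Some of the factors that build photosynthetic complexes peaked. In a list of photosynthetic complex subunits and assembly factors that was drawn up after values were seen, 4 of 21 tested genes peaked and none dipped, with a median difference of 0.20. The 4 were PAM68, LPA1, HCF101 and CRR41, each of which assists assembly and is no subunit of the finished complex. Other assembly or maturation factors on the list were not called, with differences of 0.38 for LPA2, 0.32 for LPA19, 0.19 for PSB27, 0.15 for LPA66, 0.9 for CCB3, 0.39 for CRR28, 0.2 for CRR21, 0.17 for CRR42 and 0 for CRR22.

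PAM68 (AT4G19100) and LPA1 (AT1G02910) act in the assembly of photosystem II. PAM68 had log2 intensities of 8.44 and 8.73 in expanding leaves, against 7.59 and 7.49 in younger apices, 7.89 and 8.15 in older apices, and 7.9 and 7.74 in mature leaves, a difference of 0.79 ± 0.17 (SE), or 1.73-fold higher, adjusted p = 0.029. LPA1 had log2 intensities of 8.74 and 9.28 in expanding leaves, against 7.4 and 7.74 in younger apices, 8.03 and 8.13 in older apices, and 8.49 and 8.67 in mature leaves, a difference of 0.93 ± 0.19 (SE), or 1.91-fold higher, adjusted p = 0.025. For LPA1 the lower expanding-leaf array was close to the higher mature-leaf array, at 8.74 against 8.67. HCF101 (AT3G24430) supplies iron-sulfur clusters to photosystem I. HCF101 stood at 10.39 and 10.67 in expanding leaves, against 8.78 and 9.14 in younger apices, 9.89 and 9.74 in older apices, and 10.25 and 10.09 in mature leaves, a difference of 0.88 ± 0.17 (SE), or 1.85-fold higher, adjusted p = 0.019, and mature leaves came close. CRR41 (AT1G51100) helps to assemble the chloroplast NADH dehydrogenase-like complex. The levels of CRR41 were 7.39 and 7.15 in expanding leaves, against 6.09 and 5.94 in younger apices, 6.87 and 6.17 in older apices, and 6.36 and 6.54 in mature leaves, a difference of 0.94 ± 0.22 (SE), or 1.92-fold higher, adjusted p = 0.039.

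Other plastid genes with a symbol peaked as well. Cpn60beta4 (AT1G26230) encodes a plastid chaperonin subunit needed to fold a subunit of the NADH dehydrogenase-like complex, and it had log2 intensities of 8.42 and 8.51 in expanding leaves, against 6.72 and 6.94 in younger apices, 7.94 and 7.65 in older apices, and 8.07 and 7.92 in mature leaves, a difference of 0.93 ± 0.17 (SE), or 1.9-fold higher, adjusted p = 0.018. PHYLLO (AT1G68890), an enzyme of phylloquinone synthesis, differed by 1.19 ± 0.28 (adjusted p = 0.039), and TAPX (AT1G77490), the thylakoid ascorbate peroxidase, by 0.93 ± 0.21 (adjusted p = 0.032). The stromal ascorbate peroxidase SAPX differed by -0.04 ± 0.21 (adjusted p = 0.93), with both mature-leaf arrays above the expanding-leaf arrays. FUG1 (AT1G17220), a plastid translation initiation factor, differed by 0.62 ± 0.15 (adjusted p = 0.048), MAP1D (AT4G37040), an organellar methionine aminopeptidase, by 0.72 ± 0.15 (adjusted p = 0.026), and MRL7-L (AT2G31840), which is needed for plastid gene expression, by 0.79 ± 0.18 (adjusted p = 0.037). FUG1 was among the brighter peaks, at 11.12 and 11.27 in expanding leaves, and its lower array equalled one of the mature-leaf arrays to 2 decimals.

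All 10 of these genes passed the test against younger apices, with adjusted p from 0.0019 to 0.041. Mature leaves were nearest for LPA1, HCF101, Cpn60beta4, TAPX, FUG1 and MAP1D, and older apices for the other 4, and in none did the difference from the nearest group pass (adjusted p from 0.096 to 0.66). Of 3 tested plastid chaperonin 60 beta subunits, a list added after values were seen, Cpn60beta2 differed by 0.82 ± 0.18 (adjusted p = 0.029) but was as high in older apices, and Cpn60beta3 differed by -0.66 ± 0.29 (adjusted p = 0.23). All 10 calls were lost without EL_14DAS replicate 2 or either ML_35DAS array, and 9 of them without EL_14DAS replicate 1 or Apex_14DAS replicate 2, with adjusted p up to 0.30. With equal array medians 7 were lost, with no intensity trend 9 and with no filter 5, with adjusted p up to 0.13.

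No tested gene for a photosystem subunit on the lists was called. What the called genes with only a locus identifier encode was not examined. Over all 9905 genes tested, 2061 (20.8%) had an unadjusted p under 0.05 in limma, the background for counts at that threshold. Of 61 tested plastid-encoded genes none peaked or dipped, 2 had an unadjusted p under 0.05 in limma, both higher in expanding leaves, and the median difference was 0.17. Their differences ran from -0.97 (psbM, adjusted p = 0.67) to 1.15 (ndhG, adjusted p = 0.19), so that even the largest did not pass. Over all genes tested 1.55% peaked and 1.56% dipped, a share at which few calls would fall among 61 genes. Of 5 tested nuclear genes for photosystem and light-harvesting proteins none was called, none had an unadjusted p under 0.05, and the median difference was 0.11. NdhN and NdhL, subunits of the NADH dehydrogenase-like complex, differed by 0.72 ± 0.22 (adjusted p = 0.091) and 0.64 ± 0.21 (adjusted p = 0.11), and were higher in mature leaves. The difference between assembly factors and subunits was not tested.

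Genes of stomatal development were among the peaks. Of 26 listed stomatal lineage and guard cell markers, 4 had a tested probe set, 2 peaked and none dipped, and the median difference was 1.19. STOMAGEN (AT4G12970) encodes a peptide that is secreted from the inner leaf tissue and promotes stomata. STOMAGEN had log2 intensities of 9.28 and 9.63 in expanding leaves, against 7.91 and 7.19 in younger apices, 8.62 and 8.54 in older apices, and 8.51 and 8.15 in mature leaves, with no overlap. The difference was 1.31 ± 0.22 (SE), or 2.47-fold higher, adjusted p = 0.012, and older apices, the nearest group, were not separated from expanding leaves (adjusted p = 0.086).

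FMA (AT3G24140), also called FAMA, encodes a bHLH transcription factor that directs the last step of guard cell formation. The levels of FMA were 6.67 and 6.97 in expanding leaves, against 6.16 and 5.48 in younger apices, 5.54 and 5.5 in older apices, and 6.38 and 6.32 in mature leaves, a difference of 0.93 ± 0.23 (SE), or 1.9-fold higher, adjusted p = 0.045. The nearest group was mature leaves (adjusted p = 0.23), whereas older apices passed at 0.024. SPCH and MUTE, the bHLH factors that act before FMA in the lineage, were not called. SPCH had log2 intensities of 7.54 and 7.69 in expanding leaves, against 6.06 and 6.64 in younger apices, 7.82 and 7.76 in older apices, and 4.29 and 3.72 in mature leaves, so that older apices stood highest although the difference from the mean of the others was 1.57 ± 0.23 (adjusted p = 0.0068). MUTE had 5.32 and 5.24 in expanding leaves, against 3.23 and 4.73 in younger apices, 5.21 and 4.96 in older apices, and 3.85 and 3.26 in mature leaves, a difference of 1.08 ± 0.4 (adjusted p = 0.16). SPCH was thus highest in older apices and FMA in expanding leaves, and the difference between the 2 patterns was not tested.

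The summed intensity of the 4 stomatal markers was 920 to 1130 in expanding leaves, 286 to 358 in younger apices, 636 to 671 in older apices and 356 to 450 in mature leaves. STOMAGEN, a peptide of the inner leaf tissue and not of the lineage itself, made up most of the sum in expanding leaves. The sum therefore does not stand for the number of lineage cells. In whole tissue, fewer cells of a type and less RNA per cell cannot be told apart. STOMAGEN lost its call without EL_14DAS replicate 2 or ML_35DAS replicate 2, with adjusted p up to 0.16. FMA lost its call without any one of the arrays of expanding leaves, older apices or mature leaves, with adjusted p up to 0.29, and also with equal medians, quantile normalization, the pseudocount at percentile 5, no filter or no intensity trend, where adjusted p was up to 0.084.

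Among genes of wall loosening, sugar transport and signalling, single members peaked. EXPA9 (AT5G02260) encodes an expansin, a protein that loosens the cell wall. EXPA9 had log2 intensities of 6.58 and 6.3 in expanding leaves, against 5.79 and 5.26 in younger apices, 5.09 and 5.12 in older apices, and 5.02 and 5.05 in mature leaves, and the difference was 1.22 ± 0.23 (SE), or 2.33-fold higher, adjusted p = 0.018. It was 1 of 15 tested expansins and the only one called, and the list had a median difference of -0.10. EXPA7 differed by 1.32 ± 0.41 (adjusted p = 0.1) and EXPA8 by -0.85 ± 0.4 (adjusted p = 0.25). EXPA8 had 9.72 on one expanding-leaf array and 7.73 on the other.

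SWEET1 (AT1G21460) encodes a glucose transporter of the plasma membrane. It had log2 intensities of 10.24 and 9.84 in expanding leaves, against 9.79 and 9.3 in younger apices, 9.4 and 8.9 in older apices, and 8.74 and 8.9 in mature leaves, a difference of 0.87 ± 0.21 (SE), or 1.83-fold higher, adjusted p = 0.039, and younger apices came close. Of 17 tested genes matched by the name SWEET, SWEET1 peaked and SWEET17 dipped. The match also took in SWEETIE (AT1G67140), which is no member of this transporter family and was not called. SWEET11, a sucrose exporter of the phloem, was not called, with 9.58 and 8.99 in expanding leaves, against 11.19 and 11.17 in mature leaves.

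GRX480 (AT1G28480) encodes a glutaredoxin of the plant-specific CC type, small proteins that bind TGA transcription factors. GRX480 stood at 6.4 and 6.6 in expanding leaves, against 3.83 and 4.56 in younger apices, 5.84 and 5.44 in older apices, and 5.57 and 5.62 in mature leaves, a difference of 1.36 ± 0.25 (SE), or 2.56-fold higher, adjusted p = 0.018. Of 5 tested glutaredoxins, a list added after values were seen, it was the only peak, and ROXY1, which acts in petal and anther development, differed by -1.6 ± 0.3 (adjusted p = 0.018) but was as low in mature leaves as in expanding leaves. iqd21 (AT3G49260), a calmodulin-binding protein of the IQ-domain family, had log2 intensities of 9.28 and 9.17 in expanding leaves, against 8.07 and 7.52 in younger apices, 8.73 and 8.64 in older apices, and 7.89 and 7.89 in mature leaves, a difference of 1.11 ± 0.18 (SE), or 2.15-fold higher, adjusted p = 0.011. It was the only peak among 13 tested members of that family, a list added after values were seen.

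The remaining peak genes with a symbol were AR781, PTI1-4, ATATH8, AGL87 and BGLU42. AR781 (AT2G26530) differed by 1.04 ± 0.2 (adjusted p = 0.02) and ATATH8 (AT2G39190) by 0.99 ± 0.22 (adjusted p = 0.033). PTI1-4 (AT2G47060), a kinase named after tomato Pti1, differed by 0.88 ± 0.18 (adjusted p = 0.025). AGL87 (AT1G22590), a MADS-box factor, differed by 1.01 ± 0.24 (adjusted p = 0.039), and BGLU42 (AT5G36890), a beta-glucosidase, by 0.74 ± 0.18 (adjusted p = 0.042). BGLU42 was almost level with older apices, at 7.14 and 7.25 in expanding leaves, against 7.11 and 7.04 in older apices, and low in mature leaves, at 5.73 and 5.63. The calls of EXPA9, SWEET1, GRX480, iqd21 and these 5 genes were lost without either EL_14DAS array or either ML_35DAS array, with adjusted p up to 0.32, and 6 of the 9 without Apex_14DAS replicate 2. With no intensity trend 5 of the 9 were lost, with no filter 4 and with equal medians 3, with adjusted p up to 0.09.

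**Figure D2:**
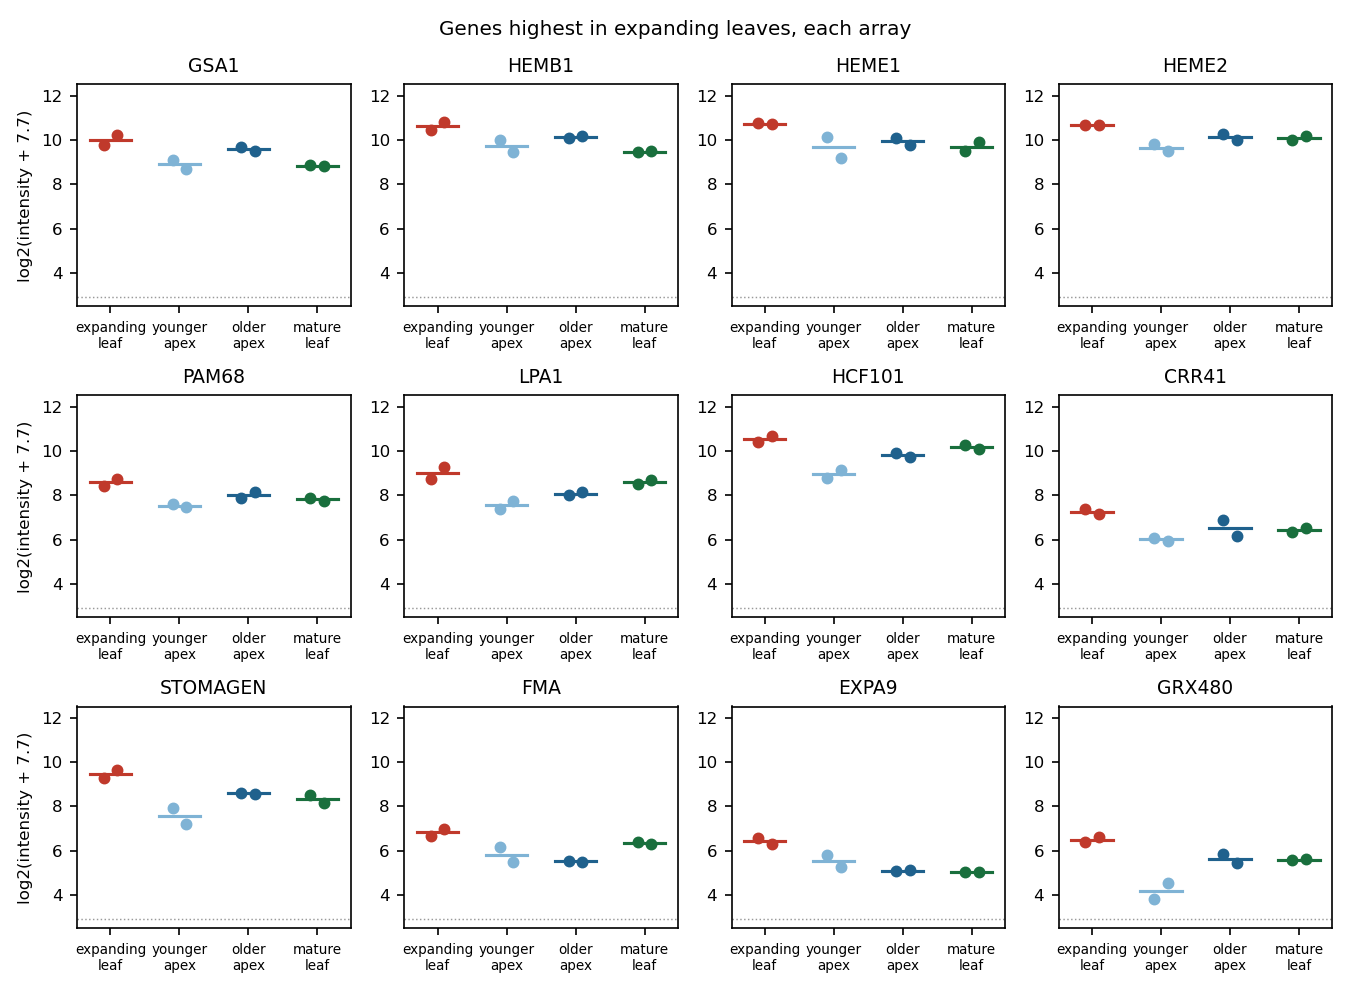
Log2(intensity + 7.7) of 12 peak genes on each of the 8 arrays, with points for arrays, bars for the means of the 2 arrays of a group, and a dotted line at an intensity of 0. Expanding leaves are highest in every panel, by a small step over older apices for GSA1 and HEME2 and over mature leaves for HCF101 and FMA, and by a wider one for STOMAGEN and EXPA9.

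The largest peaks by distance from the nearest group were genes that carry only a locus identifier in the annotation used here. AT1G31690 had log2 intensities of 7.28 and 7.09 in expanding leaves, against 4.7 and 4.12 in younger apices, 6.1 and 5.06 in older apices, and 5.22 and 5.28 in mature leaves, a difference of 2.11 ± 0.29 (SE), or 4.31-fold higher, adjusted p = 0.0055. AT3G22060 had 7.65 and 8.25 in expanding leaves, against 6.31 and 5.67 in younger apices, 4.51 and 5.56 in older apices, and 6.53 and 6.52 in mature leaves, a difference of 2.1 ± 0.3 (SE), or 4.28-fold higher, adjusted p = 0.0063. For both genes every other array was at least 1 log2 unit below the lower expanding-leaf value except for 1 older-apex array of AT1G31690 at 6.10. AT2G39690 had log2 intensities of 7.13 and 7.46 in expanding leaves, against 5.94 and 5.92 in younger apices, 5.87 and 5.52 in older apices, and 5.47 and 5.27 in mature leaves, a difference of 1.63 ± 0.2 (SE), or 3.1-fold higher, adjusted p = 0.0039, with little spread in any group.

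AT3G10720 had log2 intensities of 9.09 and 8.98 in expanding leaves, against 8.02 and 7.51 in younger apices, 6.75 and 7.14 in older apices, and 7.68 and 8.11 in mature leaves, a difference of 1.5 ± 0.21 (SE), or 2.83-fold higher, adjusted p = 0.0054. AT5G53900 had 8.32 and 8.73 in expanding leaves, against 7.26 and 6.8 in younger apices, 7.4 and 7.2 in older apices, and 6.89 and 7.47 in mature leaves, a difference of 1.36 ± 0.22 (SE), or 2.56-fold higher, adjusted p = 0.011. These 5 genes and AT2G24600 were the 6 among the named peaks that passed against each of the other 3 groups. No peak gene with a symbol did so. AT1G11850 was bright in expanding leaves, at 9.56 and 9.61, but 1 younger-apex array reached 9.12, and its difference was 1.92 ± 0.43 (adjusted p = 0.033).

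The other 8 of the 15 peaks with the largest margins were AT3G22150, AT3G21570, AT1G33930, AT1G55450, AT5G51440, AT3G56260, AT3G21660 and AT2G25735. Their differences ran from 1.3 to 1.67 and their adjusted p from 0.02 to 0.038. In AT3G21570 and AT5G51440, 3 of the 6 other arrays lay under the pseudocount of 7.7, so that the size of the difference depended on it. With all arrays and other settings, AT1G33930 lost its call in 5, AT2G25735 in 4 and AT1G11850 in 3, and the largest losses were 6 of the 15 with no intensity trend, 5 with no filter and 4 with the lowest pseudocount, with adjusted p up to 0.085. For AT5G51440 a pseudocount from percentile 5 gave 2.54 and one from percentile 40 gave 0.79, against 1.56. For AT3G21570, AT1G33930, AT3G21660 and AT2G25735 it fell to between 0.84 and 1.05 at percentile 40. AT3G21570 failed the filter without either EL_14DAS array and has no value there. Without EL_14DAS replicate 2 the other 14 lost their call, with adjusted p up to 0.28, and AT1G55450 then differed by 0.86. Without ML_35DAS replicate 1 or 2, 9 lost it, without EL_14DAS replicate 1, 8, without Apex_14DAS replicate 1 or 2, 4 or 6.

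Genes of the microtubules were among the dips. Of 7 tested tubulin genes, a list added after values were seen, 3 dipped, none peaked and the median difference was -0.56. TUB1 (AT1G75780), TUB5 (AT1G20010) and TUB6 (AT5G12250) encode beta-tubulins, subunits of the microtubules that guide cellulose deposition in growing cells. TUB1 had log2 intensities of 4.38 and 4.25 in expanding leaves, against 7.31 and 7.65 in younger apices, 7.73 and 7.53 in older apices, and 4.85 and 4.99 in mature leaves. It was low in both kinds of leaf and high in both apices, and the difference was -2.36 ± 0.2 (SE), or 5.15-fold lower, adjusted p = 0.00041, while the distance to mature leaves did not pass (adjusted p = 0.096).

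TUB5 had log2 intensities of 8.09 and 7.13 in expanding leaves, against 9.33 and 9.1 in younger apices, 8.73 and 8.33 in older apices, and 8.12 and 8.22 in mature leaves, a difference of -1.03 ± 0.24 (SE), or 2.04-fold lower, adjusted p = 0.04. Its higher expanding-leaf array was close to mature leaves, and without EL_14DAS replicate 2 the difference was -0.55. TUB6 had 7.85 and 7.31 in expanding leaves, against 9.17 and 8.85 in younger apices, 8.37 and 8.25 in older apices, and 8.43 and 8.17 in mature leaves, a difference of -0.96 ± 0.19 (SE), or 1.95-fold lower, adjusted p = 0.023. The other tubulins did not dip: TUB7 differed by -0.05 ± 0.23 (adjusted p = 0.93), TUB9 by -0.09 ± 0.24 (adjusted p = 0.87), TUA6 by -0.09 ± 0.16 (adjusted p = 0.79) and TUA1 by -0.56 ± 0.18 (adjusted p = 0.11). Beta-tubulin genes are close in sequence, and how far a probe set reads its neighbours was not tested.

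SPR1 (AT2G03680) encodes a protein of microtubule plus ends that is needed for straight growth of organs. It had log2 intensities of 9.12 and 9.07 in expanding leaves, against 10.09 and 9.83 in younger apices, 9.66 and 9.65 in older apices, and 9.59 and 9.64 in mature leaves, a difference of -0.65 ± 0.15 (SE), or 1.57-fold lower, adjusted p = 0.035, small but with no overlap. It was 1 of 5 tested members of its family, a list added after values were seen, and SP1L2 differed by -1.27 ± 0.33 (adjusted p = 0.056). XTH32 (AT2G36870) encodes a xyloglucan endotransglucosylase/hydrolase, which cuts and rejoins wall polymers. XTH32 had log2 intensities of 8.44 and 8.22 in expanding leaves, against 10.25 and 10.6 in younger apices, 9.37 and 9.0 in older apices, and 9.6 and 9.53 in mature leaves, a difference of -1.4 ± 0.17 (SE), or 2.63-fold lower, adjusted p = 0.0039, and passed against each other group. It was the only dip among 6 tested XTH genes, whose median difference was -0.32. TUB1 kept its call without any 1 array, while XTH32 lost it without EL_14DAS replicate 2. TUB5, TUB6 and SPR1 lost theirs without that array or any 1 older-apex or mature-leaf array, with adjusted p up to 0.33, and with no intensity trend (up to 0.092).

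RALF peptides are secreted signals that alkalinise the wall and restrain growth through receptor kinases. Of 7 tested RALF genes, a list added after values were seen, RALFL22 and RALFL32 dipped and the median difference was -0.54. RALFL32 (AT4G14010) had log2 intensities of 5.27 and 5.34 in expanding leaves, against 8.08 and 7.81 in younger apices, 7.21 and 7.83 in older apices, and 6.22 and 5.53 in mature leaves, a difference of -1.81 ± 0.24 (SE), or 3.5-fold lower, adjusted p = 0.005, with mature leaves nearly as low. RALFL22 had 6.05 and 6.78 in expanding leaves, against 8.45 and 7.63 in younger apices, 6.79 and 7.34 in older apices, and 7.82 and 7.35 in mature leaves, a difference of -1.15 ± 0.29 (SE), or 2.22-fold lower, adjusted p = 0.049, and 1 older-apex array at 6.79 almost met the expanding-leaf array at 6.78.

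TET3 (AT3G45600) encodes a tetraspanin, a membrane protein with a place at plasmodesmata. It was the only dip among 12 tested tetraspanins, a list added after values were seen. It had log2 intensities of 6.73 and 5.4 in expanding leaves, against 8.31 and 7.83 in younger apices, 7.31 and 7.09 in older apices, and 8.85 and 8.83 in mature leaves, a difference of -1.98 ± 0.3 (SE), or 3.93-fold lower, adjusted p = 0.0083. The 2 expanding-leaf arrays were far apart, and without replicate 2 the difference was -1.31. PRXR1 (AT4G21960), a secreted peroxidase, had log2 intensities of 10.59 and 10.03 in expanding leaves, against 11.64 and 11.08 in younger apices, 11.61 and 11.89 in older apices, and 11.27 and 11.12 in mature leaves, a difference of -1.12 ± 0.21 (SE), or 2.18-fold lower, adjusted p = 0.018. LCR68 (AT2G02130), of the defensin-like family, had 8.72 and 9.22 in expanding leaves, against 10.26 and 9.85 in younger apices, 10.04 and 9.87 in older apices, and 10.11 and 9.77 in mature leaves, a difference of -1.01 ± 0.19 (SE), or 2.02-fold lower, adjusted p = 0.02. CYS1 (AT5G12140), a cystatin that inhibits cysteine proteases, had 8.14 and 8.02 in expanding leaves, against 9.04 and 8.84 in younger apices, 8.83 and 9.27 in older apices, and 9.73 and 9.36 in mature leaves, a difference of -1.09 ± 0.18 (SE), or 2.13-fold lower, adjusted p = 0.013. PRXR1, LCR68 and CYS1 passed against each other group.

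ARA12 (AT5G67360), a subtilisin-like protease, differed by -0.82 ± 0.18 (adjusted p = 0.033) and DRT100 (AT3G12610), a leucine-rich repeat protein, by -1.42 ± 0.32 (adjusted p = 0.032), both dips. Of 23 tested serine carboxypeptidase-like genes, a list added after values were seen, SCPL49 (AT3G10410), at -0.82 ± 0.2 (adjusted p = 0.041), and scpl35 (AT5G08260), at -1.08 ± 0.2 (adjusted p = 0.018), dipped. SCPL45 differed by -1.5 ± 0.2 (adjusted p = 0.005) but was as low in mature leaves as in expanding leaves. All 10 calls from RALFL32 to scpl35 were lost without EL_14DAS replicate 2, 7 without replicate 1, and 8 or 7 without ML_35DAS replicate 1 or 2, with adjusted p up to 0.38. With no intensity trend 6 were lost, with no filter 4 and with equal medians 3, with adjusted p up to 0.091.

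Of 8 tested auxin genes GH3.3 was the only one called. None was called among 5 gibberellin and brassinosteroid, 7 jasmonate and 6 abscisic acid and cold genes, where 1, 3 and 2 had an unadjusted p under 0.05 in limma. GH3.3 (AT2G23170) encodes an enzyme that conjugates auxin to amino acids and thereby inactivates it. GH3.3 had log2 intensities of 3.55 and 3.12 in expanding leaves, against 7.58 and 7.39 in younger apices, 7.75 and 7.79 in older apices, and 4.49 and 4.67 in mature leaves. The expanding-leaf values lay near the foot of the scale and both apices far above them, and the difference was -3.28 ± 0.21 (SE), or 9.69-fold lower, adjusted p = 0.00019. It passed against each other group and without any 1 array, and was -4.7 for a pseudocount from percentile 5 and -2.09 for one from percentile 40.

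Of 4 tested GH3 genes, a list added after values were seen, GH3.3 dipped and the median difference was -2.60. WES1 had log2 intensities of 5.45 and 4.95 in expanding leaves, against 9.56 and 9.58 in younger apices, 8.31 and 8.61 in older apices, and 5.18 and 5.68 in mature leaves, and GH3.17 had 3.42 and 4.78 in expanding leaves, against 8.78 and 8.81 in younger apices, 7.39 and 8.31 in older apices, and 3.69 and 3.06 in mature leaves. Both were high in the apices, but expanding leaves overlapped mature leaves, so that neither was called despite differences of -2.62 ± 0.21 (adjusted p = 0.00041) and -2.57 ± 0.37 (adjusted p = 0.0062). GH3.9 differed by 0.08 ± 0.21 (adjusted p = 0.85).

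LHW (AT2G27230) encodes a bHLH factor of vascular cell divisions. It had log2 intensities of 5.87 and 5.98 in expanding leaves, against 7.31 and 7.81 in younger apices, 7.81 and 8.13 in older apices, and 7.13 and 6.89 in mature leaves, a difference of -1.59 ± 0.2 (SE), or 3-fold lower, adjusted p = 0.0039, and passed against each other group. MYBC1 (AT2G40970), a MYB-like factor, had 4.32 and 3.1 in expanding leaves, against 5.7 and 5.3 in younger apices, 4.75 and 4.69 in older apices, and 6.47 and 6.1 in mature leaves, a difference of -1.79 ± 0.33 (SE), or 3.46-fold lower, adjusted p = 0.018. XERICO (AT2G04240), a RING-H2 protein that raises abscisic acid, differed by -0.85 ± 0.19 (adjusted p = 0.032), and BRH1 (AT3G61460), a RING-H2 gene repressed by brassinosteroid, by -0.94 ± 0.17 (adjusted p = 0.018).

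PTL (AT5G03680) encodes a trihelix factor that restrains growth between sepals and in other organs. The levels of PTL were 3.47 and 3.65 in expanding leaves, against 5.01 and 5.68 in younger apices, 5.36 and 5.91 in older apices, and 3.73 and 4.18 in mature leaves, a difference of -1.42 ± 0.31 (SE), or 2.68-fold lower, adjusted p = 0.029, with mature leaves nearly as low. AGL24 (AT4G24540), a MADS-box promoter of flowering, had 3.31 and 3.37 in expanding leaves, against 3.46 and 4.1 in younger apices, 5.26 and 5.65 in older apices, and 5.26 and 5.47 in mature leaves, a difference of -1.53 ± 0.3 (SE), or 2.89-fold lower, adjusted p = 0.02, with younger apices nearly as low. SHI (AT5G66350), a zinc-finger factor of auxin synthesis and gibberellin response, had 4.72 and 4.61 in expanding leaves, against 5.84 and 5.77 in younger apices, 5.55 and 5.62 in older apices, and 5.22 and 5.14 in mature leaves, a difference of -0.86 ± 0.21 (SE), or 1.81-fold lower, adjusted p = 0.048. These genes were dim, and the sizes depended on the pseudocount: with values from percentile 5 and percentile 40 the differences were -2.18 and -0.75 for PTL, -2.55 and -0.76 for AGL24 and -2.88 and -0.98 for MYBC1. SHI differed by -0.54 at percentile 40.

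UBC30 (AT5G56150), a ubiquitin-conjugating enzyme, had log2 intensities of 6.7 and 6.61 in expanding leaves, against 8.0 and 8.3 in younger apices, 7.31 and 7.59 in older apices, and 8.56 and 8.55 in mature leaves, a difference of -1.4 ± 0.17 (SE), or 2.64-fold lower, adjusted p = 0.0039. HTB4 (AT5G59910), a histone H2B, differed by -0.81 ± 0.2 (adjusted p = 0.047) and MOB1-like (AT5G45550), of the MOB family that activates growth-regulating kinases, by -0.63 ± 0.15 (adjusted p = 0.046). Of 7 tested core and linker histones, a list added after values were seen, HTB4 was the only one called, and HTB1, HTB2 and HTB11 differed by -0.34 ± 0.17 (adjusted p = 0.27), -0.57 ± 0.23 (adjusted p = 0.19) and -0.7 ± 0.2 (adjusted p = 0.071). Histone genes are near copies, and probe sets shared between them were not tested for.

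Of the 11 dips from GH3.3 to MOB1-like, 10 lost their call without EL_14DAS replicate 2, 7 without replicate 1 and 8 without either ML_35DAS array, with adjusted p up to 0.27, and without replicate 2 MYBC1 differed by -1.18. Without Apex_14DAS replicate 1 or 2, 4 or 6 were lost. With no filter PTL, HTB4 and SHI were lost, with no intensity trend XERICO, MOB1-like and HTB4, and with equal medians MOB1-like and HTB4, with adjusted p up to 0.10.

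The summed signal of root markers was high in the same samples as these apex-high genes, although the markers did not all follow it. Of 13 listed root markers 4 were tested, none was called, and their summed intensity was 272 to 323 in expanding leaves, 2850 to 3170 in younger apices, 1590 to 2350 in older apices and 23.5 to 33.7 in mature leaves. PYK10, a beta-glucosidase of seedling and root endoplasmic reticulum bodies, made up most of it, with log2 intensities of 7.5 and 7.97 in expanding leaves, against 11.38 and 11.51 in younger apices, 10.48 and 11.11 in older apices, and 4.04 and 4.4 in mature leaves. NAI2, a component of the same bodies, had 5.67 and 5.57 in expanding leaves, against 7.25 and 7.8 in younger apices, 7.16 and 7.1 in older apices, and 3.54 and 3.68 in mature leaves. EXPA7, a root hair expansin, was highest in expanding leaves instead, with 5.69 and 4.95 in expanding leaves, against 3.91 and 4.23 in younger apices, 4.71 and 3.54 in older apices, and 3.34 and 4.31 in mature leaves, and EXPA18 differed by -0.18 ± 0.32 (adjusted p = 0.79). GH3.3, TUB1, PTL and RALFL32 were higher in mature leaves than in expanding leaves, a difference that passed for GH3.3 only. The part of root markers in the low levels of these 4 genes in expanding leaves was not tested.

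In other dips mature leaves stood highest. PPDK (AT4G15530) encodes pyruvate orthophosphate dikinase, which in leaves of this species is known to take part in nitrogen export during ageing. PPDK had log2 intensities of 5.19 and 4.9 in expanding leaves, against 5.66 and 6.67 in younger apices, 6.17 and 5.67 in older apices, and 10.47 and 10.45 in mature leaves. Mature leaves stood far above all other groups, and the difference from the mean of the others was -2.47 ± 0.27 (SE), or 5.53-fold lower, adjusted p = 0.0017. Against the apices alone the expanding leaves were not separated (adjusted p = 0.06 for younger and 0.16 for older apices).

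FDH (AT5G14780) encodes the mitochondrial formate dehydrogenase. It had log2 intensities of 7.32 and 7.46 in expanding leaves, against 7.78 and 8.01 in younger apices, 8.01 and 8.45 in older apices, and 11.27 and 11.07 in mature leaves, a difference of -1.7 ± 0.18 (SE), or 3.26-fold lower, adjusted p = 0.0014, again with mature leaves highest. APS4 (AT5G43780), an ATP sulfurylase of sulfate assimilation, had 6.28 and 6.3 in expanding leaves, against 7.42 and 6.78 in younger apices, 6.56 and 6.93 in older apices, and 8.69 and 8.57 in mature leaves, a difference of -1.2 ± 0.21 (SE), or 2.3-fold lower, adjusted p = 0.015. PPDK and FDH kept their calls under every setting tried, whereas APS4 lost its call without either EL_14DAS array or either ML_35DAS array, with adjusted p up to 0.13. Against younger and older apices the limma adjusted p was 0.19 and 0.049 for FDH, and 0.079 and 0.35 for APS4. None of PPDK, FDH and APS4 was thus separated from both apices. Of the 155 dips, mature leaves were the highest group in 60 and one of the apices in 95.

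SWEET17 (AT4G15920) dipped evenly against all other groups. It encodes a fructose transporter of the vacuolar membrane, and it had log2 intensities of 6.06 and 5.36 in expanding leaves, against 7.61 and 7.64 in younger apices, 7.54 and 7.13 in older apices, and 7.13 and 7.55 in mature leaves. No group overlapped the expanding leaves, the other 3 stages were almost level with each other, and the difference was -1.72 ± 0.23 (SE), or 3.3-fold lower, adjusted p = 0.005. FMO (AT1G12200), a flavin-containing monooxygenase, had 5.19 and 4.63 in expanding leaves, against 6.45 and 6.79 in younger apices, 5.86 and 6.04 in older apices, and 6.35 and 6.06 in mature leaves, a difference of -1.35 ± 0.23 (SE), or 2.55-fold lower, adjusted p = 0.013. Both lost their call without EL_14DAS replicate 2, and FMO also without ML_35DAS replicate 1, with adjusted p up to 0.15.

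**Figure D3:**
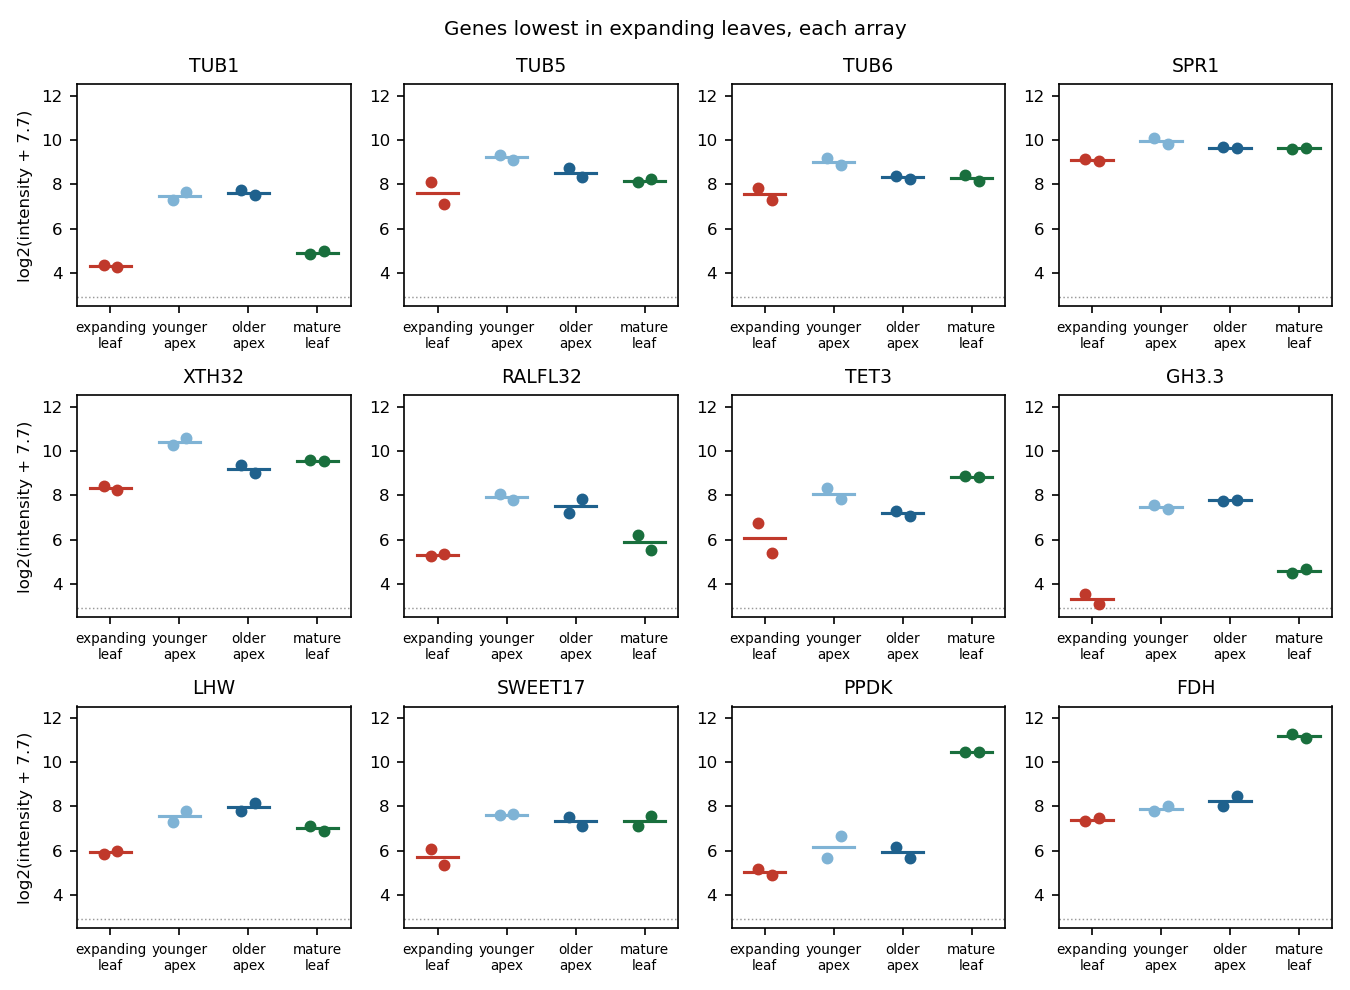
Log2(intensity + 7.7) of 12 dip genes on each of the 8 arrays, with points for arrays, bars for the means of the 2 arrays of a group, and a dotted line at an intensity of 0. Expanding leaves are lowest in every panel, with mature leaves close above them for TUB1 and RALFL32, further above for GH3.3, far above them for PPDK and FDH, and all 3 other groups about level for SWEET17.

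The deepest dips by distance from the nearest group again carry only locus identifiers. AT5G01210 had log2 intensities of 5.24 and 5.18 in expanding leaves, against 8.92 and 8.74 in younger apices, 6.87 and 7.82 in older apices, and 7.87 and 7.57 in mature leaves, a difference of -2.75 ± 0.24 (SE), or 6.75-fold lower, adjusted p = 0.00053. The 2 expanding-leaf arrays were almost equal and well below every other array. AT1G48750 had 6.16 and 6.04 in expanding leaves, against 8.32 and 8.1 in younger apices, 8.29 and 8.46 in older apices, and 7.88 and 7.82 in mature leaves, a difference of -2.05 ± 0.17 (SE), or 4.13-fold lower, adjusted p = 0.00041, with narrow groups throughout. AT3G45160 had 4.12 and 4.64 in expanding leaves, against 5.67 and 6.35 in younger apices, 7.93 and 8.2 in older apices, and 7.22 and 7.11 in mature leaves, a difference of -2.7 ± 0.24 (SE), or 6.49-fold lower, adjusted p = 0.00053, and was lower in younger apices than in the other 2 groups.

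AT5G41400 had log2 intensities of 4.76 and 3.69 in expanding leaves, against 7.83 and 7.72 in younger apices, 7.39 and 6.87 in older apices, and 6.47 and 6.2 in mature leaves, a difference of -2.85 ± 0.28 (SE), or 7.23-fold lower, adjusted p = 0.00097. AT1G67330 had 3.2 and 4.35 in expanding leaves, against 6.09 and 6.97 in younger apices, 5.51 and 6.29 in older apices, and 6.8 and 6.79 in mature leaves, a difference of -2.63 ± 0.35 (SE), or 6.2-fold lower, adjusted p = 0.005. AT2G36220 had 3.15 and 3.07 in expanding leaves, against 6.92 and 6.72 in younger apices, 5.72 and 5.41 in older apices, and 4.67 and 4.86 in mature leaves, a difference of -2.61 ± 0.24 (SE), or 6.09-fold lower, adjusted p = 0.00057. Expanding leaves were dim for these 3 genes, and AT2G36220 differed by -4.45 for a pseudocount from percentile 5 and by -1.39 for one from percentile 40. In 31 of the 155 dips at least 1 expanding-leaf array lay under the pseudocount, and in 16 both did.

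The other dips with the largest margins that carry only an identifier were AT1G62480, AT5G57910, AT4G22160, AT1G72810, AT1G16310, AT5G22460, AT5G43180 and AT5G23460, with differences from -2.48 to -1.64. At percentile 40 AT5G57910, AT4G22160, AT1G16310, AT5G22460, AT5G43180, AT5G23460 and AT1G67330 moved toward 0 by over 1.5-fold, to between -1.63 and -0.83, and at percentile 5 AT5G57910, AT4G22160 and AT5G22460 moved to between -3.36 and -2.88. AT1G62480 was uneven within its groups, at 3.18 and 5.69 in expanding leaves, against 7.06 and 9.14 in older apices, and its difference of -2.48 became -1.23 without EL_14DAS replicate 1 and -3.75 without replicate 2. It lost its call in 6 of the other settings, with adjusted p up to 0.16. AT5G01210, AT1G67330, AT5G41400, AT1G48750, AT2G36220, AT3G45160 and AT4G22160 kept theirs without any 1 array.

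Several lists that bear on leaf growth held no call. Of 9 tested genes of mitosis and cytokinesis none peaked or dipped and none had an unadjusted p under 0.05 in limma, with a median difference of 0.19. AUR2, a mitotic kinase, had log2 intensities of 6.69 and 7.34 in expanding leaves, against 7.21 and 7.77 in younger apices, 8.34 and 8.83 in older apices, and 4.31 and 4.5 in mature leaves. In limma it differed by -0.47 from younger apices (adjusted p = 0.38), -1.57 from older apices (0.016) and 2.61 from mature leaves (0.00068). A gene that lies between the other groups in this way cannot be called by the rule used here, so the absence of a call does not mean equal levels. Of 8 regulators of proliferation and organ growth none was called, and the median difference was -0.43. NUB, a zinc-finger factor of lateral organ growth, and ARL, a promoter of cell expansion, passed the adjusted p with differences of -1.43 ± 0.27 (adjusted p = 0.018) and -0.81 ± 0.17 (adjusted p = 0.027), but their expanding-leaf arrays overlapped mature leaves for NUB and older apices for ARL. Of 4 genes of DNA replication none was called and 1 had an unadjusted p under 0.05, lower in expanding leaves.

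Of 9 tested genes matched to the glucosinolate list none met both conditions, and the median difference was -0.89. At an unadjusted p under 0.05 in limma 6 were lower in expanding leaves, and 3 of these passed the adjusted p. The match took in APK1A (AT1G07570), a protein kinase and no glucosinolate gene, which differed by -0.03. BCAT4, a methionine aminotransferase of glucosinolate synthesis, had log2 intensities of 5.74 and 3.8 in expanding leaves, against 5.04 and 4.12 in younger apices, 10.83 and 9.59 in older apices, and 11.44 and 11.56 in mature leaves. Expanding leaves and younger apices were both low and overlapped, so that it was not called despite a difference of -3.99 ± 0.47 (adjusted p = 0.0031). AOP3, which modifies glucosinolate side chains, differed by -1.98 ± 0.27 (adjusted p = 0.005). It was lower still in younger apices, at 7.05 and 7.27, against 7.8 and 7.43 in expanding leaves. GSTU20 differed by -1.29 ± 0.29 (adjusted p = 0.032), and its expanding-leaf arrays overlapped younger apices.

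Of 7 genes matched to the flavonoid list none was called, and the median difference was -0.71. Among them the entry CHI was matched to AT2G43570, a chitinase and no flavonoid gene, which differed by -0.61. DFR, the dihydroflavonol reductase of anthocyanin synthesis, passed the adjusted p with -1.88 ± 0.47 (adjusted p = 0.049) but was lower in mature leaves. Of 7 jasmonate genes, 26 UDP-glycosyltransferases, 10 cytochromes P450 and 13 genes of the GH9 and CSLA families none was called. In these lists 3, 3, 1 and 2 genes had an unadjusted p under 0.05 in limma in either direction. The tested cytochromes P450 were all of the CYP71B subfamily and do not stand for the other subfamilies. The GH9 glycosyl hydrolases and CSLA genes came from a list for cellulose synthase and related genes, of which no cellulose synthase itself was tested. The glycosyl hydrolase genes GH9B8 and GH9B13 passed the adjusted p, at -0.95 ± 0.21 (adjusted p = 0.029) and -0.96 ± 0.21 (adjusted p = 0.028), and were lower still in mature leaves. Of the 24 lists with at least 5 tested members that were not added after values were seen, 8 held any call. The sugar and SWEET lists hold the same calls, SWEET1 and SWEET17. Over all genes tested 1.55% peaked and 1.56% dipped, and the number of lists with a call was not tested against that share. The 11 such lists added after values were seen all hold a call because they were built around called genes.

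**Figure D4:**
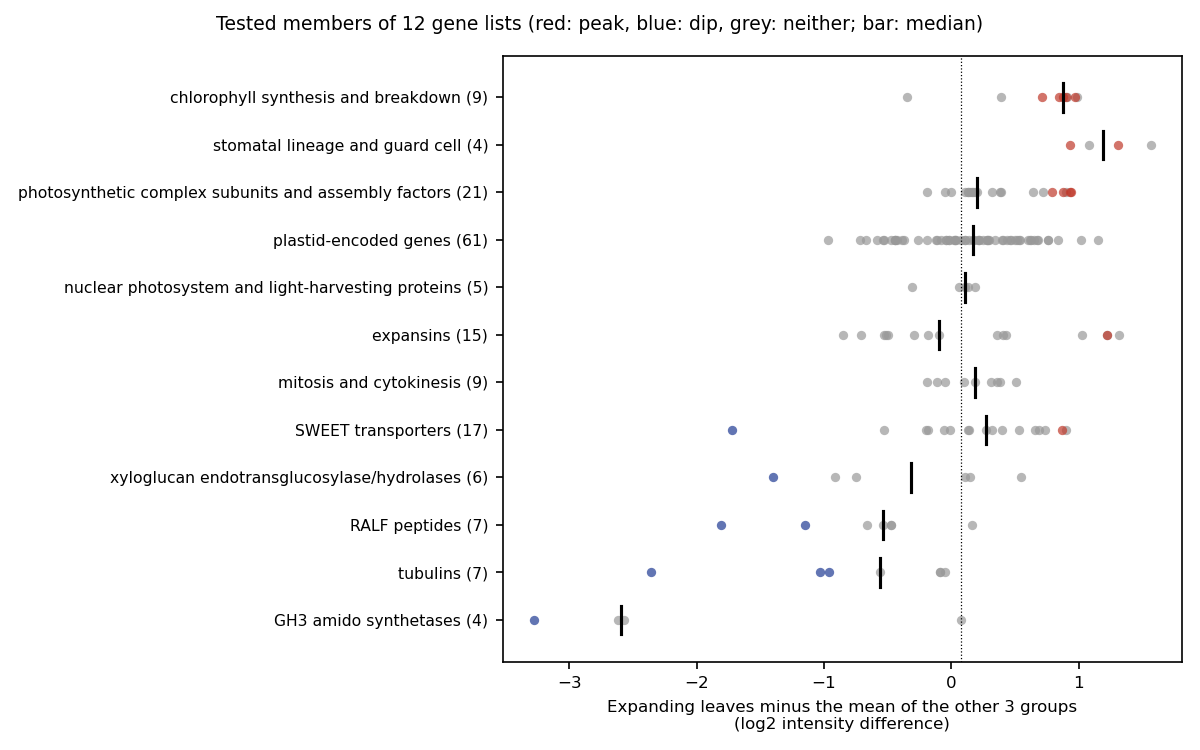
Difference between expanding leaves and the mean of the other 3 groups, in log2 intensity, for each tested member of 12 gene lists, with the number tested in brackets, the median of each list as a bar and the median of all genes as a dotted line. Peaks (red) appear in the chlorophyll, stomatal and assembly lists and dips (blue) in the tubulin, RALF and GH3 lists, and the 61 plastid-encoded genes spread on both sides of 0 with no call.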

How the data were processed

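RNA of 4 shoot tissues was hybridised to 8 Affymetrix ATH1 arrays, 2 per group. The authors deposited 1 table with the linear intensity of 22810 probe sets. Per the submitters' processing notes MAS5 made these values, and the median of every deposited array was 50, by a step not given in the sources used here. Detection calls were not used. Members and gene lists were chosen with earlier results of these data known.

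Because the 2% trimmed means of the arrays ran from 117 to 175, more than the limit of 1.2-fold, each array was multiplied to their median with factors between 0.757 and 1.14. After 64 control probe sets were dropped, log2 was taken of the intensity plus a pseudocount of 7.7 (percentile 20). A probe set was kept when it lay above percentile 30 of its array on at least 2 arrays. Names came from the platform annotation, which lists 14016 probe sets, of which 503 match several genes and were left out. Of 13513 with 1 gene, 13436 were found in RefSeq's gene table (assembly TAIR10.1), which served for names. The 8730 unlisted probe sets stayed unnamed. The probe set with the highest mean stood for a gene, which gave 9905 genes.

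Groups were compared in 1 fit of all 8 arrays by limma 3.58.1 under R 4.3.3, with moderated two-sided tests, an intensity trend, 4 residual degrees of freedom and 6.22 prior ones. Benjamini-Hochberg adjustment ran over the 9905 genes of each comparison, and the threshold was 0.05. Lists were described by counts and medians, with no set test.

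Named were the 15 peaks and 15 dips with the largest distance to the nearest group, and up to 3 called members of each list. Every called gene with a symbol was added after values were seen, as were 14 lists. Uncalled list members are given for context. The steps were checked on simulated data. Alternatives changed the scaling, pseudocount, filter, variance model, probe set choice and the arrays used. A planned count of promoter motifs was not run and no sequence is printed, since no sequence table was used here.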

Additional observations from a re-analysis of the deposited data

Results flagged for a closer look

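Probe sets without a single gene name, which enter no comparison above, also held genes of this pattern. In a limma fit over all 17837 probe sets, 7810 of those tested had no single name, and 151 of them peaked (1.93%) and 165 dipped (2.11%) in expanding leaves by the same rule. They are given because they lie outside the measurement used above.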

How the results depend on the processing

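The counts of genes highest, lowest, higher than each group and lower than each group in expanding leaves were 154, 155, 12 and 34. The number of peaks was 100 with equal array medians, 60 with no intensity trend, 314 over all 17837 probe sets and 72 with a 2-fold minimum. The number of dips was 85 with no intensity trend and 327 over all probe sets. Genes higher than each group numbered 19 with the pseudocount at percentile 40, 19 with the filter at percentile 50, 4 with no intensity trend, 25 over all probe sets and 6 with a 2-fold minimum. Genes lower than each group numbered 17 with no filter and 74 over all probe sets. The counts over all probe sets come from more features, and the size condition itself accounts for the smaller counts at the 2-fold minimum. For all probe sets and for the other settings the cause of the change was not tested. With equal array medians 95 of the 154 peaks and 132 of the 155 dips were called again, and the median difference over all genes lay between 0.03 and 0.11 in every setting.

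Leaving out each array in turn gave 5 to 341 peaks, 22 to 271 dips, 1 to 56 genes higher than each group and 8 to 52 lower than each group. These fits have fewer arrays and fewer degrees of freedom. Of the 86 named genes, 11 kept their call in all 8 such fits, 75 lost it in at least 1 and none reversed its direction. In the other settings 41 of the 86 kept it throughout.

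Replicate numbers were not taken to pair the arrays, since deviations of same-numbered arrays from their group means correlated over 0.1 in only some pairs of groups: 0.31 for expanding leaves with older apices, 0.13 with younger apices, and -0.09 to 0.04 in the other pairs. With the replicate number as a block there were 156 peaks, 156 dips, 13 genes higher than each group and 35 lower than each group, and 144 peaks and 146 dips were shared with the fit without the block. Named genes that lost their call with the block were FUG1 (adjusted p = 0.052), BGLU42 (0.051), RALFL22 (0.054), MOB1-like (0.055), HTB4 (0.052) and SHI (0.058).

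The precision is limited by 2 arrays per group and by dim probe sets near the pseudocount.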
